A study of Mus musculus with 6 samples.

Results

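The histone genes of mouse splenic leukaemia cells are described here: the replication-dependent genes for linker histone H1 and core histones H2A, H2B, H3 and H4, and the genes for the replacement variants H1.0, H1.10, H2A.X, H2A.Z and H3.3. They were taken by symbol, as H1f, H2ac, H2bc, H3c or H4c followed by a number, or H2az1, H2az2, H2ax, H3f3a or H3f3b. This gave 77 of the 54232 genes in the table, of which 65 had at least 1 count and 12 had none. By class they are 5 linker H1 genes, 17 H2A, 17 H2B, 12 H3, 13 H4, 7 replacement variants and 6 forms known from testis or oocyte. All 77 identifiers matched the GENCODE M21 annotation of GRCm38, where 54 lie on chromosome 13 between positions 21715763 and 23934851, the large histone cluster.

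The leukaemia came from Eµ-TCL1 mice, which carry the TCL1 oncogene under an immunoglobulin heavy chain promoter and enhancer and develop a B-cell disease resembling human chronic lymphocytic leukaemia (CLL). Splenic mononuclear cells of terminally ill donors, 99% of them CLL cells, were injected into the peritoneum of WT C57BL/6J recipients, so every host kept its own normal immune cells. From day 5, recipients received oral PF-670462, which blocks the delta and epsilon isoforms of casein kinase 1, at 50 mg/kg in a vehicle of PBS with 10% kolliphor (CK1i, 3 libraries), or that vehicle alone (CTRL, 3 libraries). They were dosed on 5 days and rested on 2, over 8 weeks, and the experiment ended when CTRL mice had at least 60% CLL cells among blood leukocytes. Leukaemic B cells were sorted from the recipients' spleens. Ages, the number of donors and whether each library is its own mouse are not given in the sources used here, so a p-value here covers only the spread between samples, and that spread may be technical.

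RNA was read with QuantSeq, a 3' end method in which oligo-dT primes at the poly(A) tail. Library totals were 2472064 to 3105137 counts over 14339 to 14836 genes, and 1 count was worth 0.326 to 0.401 CPM (a count scaled by TMM to a fixed library size). All 12 B-cell and CLL markers were tested, with summed levels of 18861 to 23590 CPM in CK1i and 21898 to 24544 CPM in CTRL. The defining markers of other cells were near 0: Cd3d, Cd3e and Cd3g of T cells had 11, 6 and 8 counts in all, Ncr1 of NK cells, Ly6g of neutrophils and Pf4 of platelets had 0, and the NK, neutrophil, erythroid and platelet lists each summed to at most 6.20 CPM in any library. The T-cell list summed to 117 to 166 CPM in CK1i and 105 to 122 CPM in CTRL, almost all of it Lck, a kinase that CLL cells also express. Plasma-cell markers summed to 1029 to 2187 CPM in CK1i and 1720 to 2538 CPM in CTRL. On the first principal component, with 28% of the variance, CTRL library 1 stood at 31.4 and the other 5 libraries between -12.4 and 4.68.

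Replication-dependent histone genes are made in S phase, when new nucleosomes must be built behind the replication fork. Their messages are the only animal mRNAs that normally lack a poly(A) tail: the transcript ends a few bases after a stem-loop, which the stem-loop binding protein SLBP holds from processing to decay. NPAT, at histone locus bodies, drives their transcription. Replacement variants are made through the whole cell cycle from genes outside the clusters, mostly with ordinary polyadenylated messages, and are placed in chromatin by their own chaperones. An oligo-dT library is therefore made to take the variants, and of a replication-dependent gene the transcripts that carry a tail.

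The stem-loop is the sequence on which this difference rests. Below it is shown for 10 tested members, as examples from each class in which a tested gene has it, 5′ to 3′ on the gene's strand, as DNA letters, with the stem and loop in capitals and 5 bases on each side in lower case. The sites were read from GENCODE M21 transcripts.
H1f2, chr13:23739507-23739532, plus strand: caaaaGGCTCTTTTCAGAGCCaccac
H1f4, chr13:23621777-23621802, minus strand: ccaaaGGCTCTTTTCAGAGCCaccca
H2ac25, chr11:58955167-58955192, plus strand: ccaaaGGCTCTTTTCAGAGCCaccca
H2ac6, chr13:23683472-23683497, minus strand: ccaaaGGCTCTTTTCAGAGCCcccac
H2ac8, chr13:23570663-23570688, minus strand: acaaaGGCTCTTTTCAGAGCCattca
H2bc8, chr13:23571838-23571863, plus strand: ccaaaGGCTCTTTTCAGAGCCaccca
H3c4, chr13:23576239-23576264, plus strand: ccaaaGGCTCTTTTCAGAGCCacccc
H4c9, chr13:22040961-22040986, minus strand: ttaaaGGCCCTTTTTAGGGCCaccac
H4c4, chr13:23581945-23581970, plus strand: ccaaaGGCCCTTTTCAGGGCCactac
H2ax, chr9:44335235-44335260, plus strand: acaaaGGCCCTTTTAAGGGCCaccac
By the way they were searched, the cores differ at 1 stem pair and the last loop letter only. The search took a stem arm GGCNCT, a loop TTTN and a second arm AGNGCC, 16 letters in all, on the gene's own strand within 200 bases after the stop codon. The form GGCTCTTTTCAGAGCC was found in 26 members, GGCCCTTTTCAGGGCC in 7 and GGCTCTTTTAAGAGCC in 6.

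A stem-loop was found in 43 of the 77 members (55.8%), against 44 of 21674 protein-coding genes (0.203%), so that 1 gene outside the members, H2bfm, had it. In 17 members with none found the model ends at or near the stop codon, which left little or no sequence to search. Their lack of a hit therefore does not show that the gene lacks a stem-loop. Windows of 100 and 400 bases found the same number, though a wider window could add nothing where the model ends at or near the stop codon. With 1 allowed mismatch there were 45 members and 3 other genes. H2ax was the only replacement variant with a stem-loop found. The polyadenylation signal AATAAA was found in the last 50 bases of the annotated 3' UTR in 22 members (28.6%), against 65.8% of protein-coding genes. The same limit holds here, and 0 of those 17 members had it.

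What the annotation places after the stem-loop went with how many counts a gene had. For members with a stem-loop, only the transcript models that hold it were judged. Of these members, 21 have models that end within 100 bases of it, with a median of 25 counts over the 6 libraries (range 0 to 75). They include H2bc22, whose gene is annotated to position 21789213 of chromosome 13, past its stem-loop site at 21787918 to 21787943. In another 22 the model runs on further, and the median was 109.5 counts (range 0 to 2931). The 17 members with no stem-loop found whose models end at or near the stop codon had a median of 10 counts (range 0 to 72), and the 17 with a longer 3' UTR 20 counts (range 0 to 13809). A model that ends at the stop codon or stem-loop cannot collect reads that fall beyond it. Sequence sharing differed too, as the percent of 75-base stretches in the last 400 bases found in another gene. Where the model ends near the stem-loop it ran from 19.9% in H2bc14 to 100% in H2ac18. Where the model runs on it was 0.0% in H1f2 and H2ac25. It was 77.3% in H3c6, with 27 counts, and 100% in H1f4, with 323. The extent of the model, the amount of tailed RNA and any reads lost through shared sequence cannot be told apart here. Among the 22 that run on, the 8 with AATAAA near the annotated end had a median of 44 counts and the other 14 a median of 133. The 20 replication-dependent genes that run on held 79.0% of all counts of that class.

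**Figure D1:**
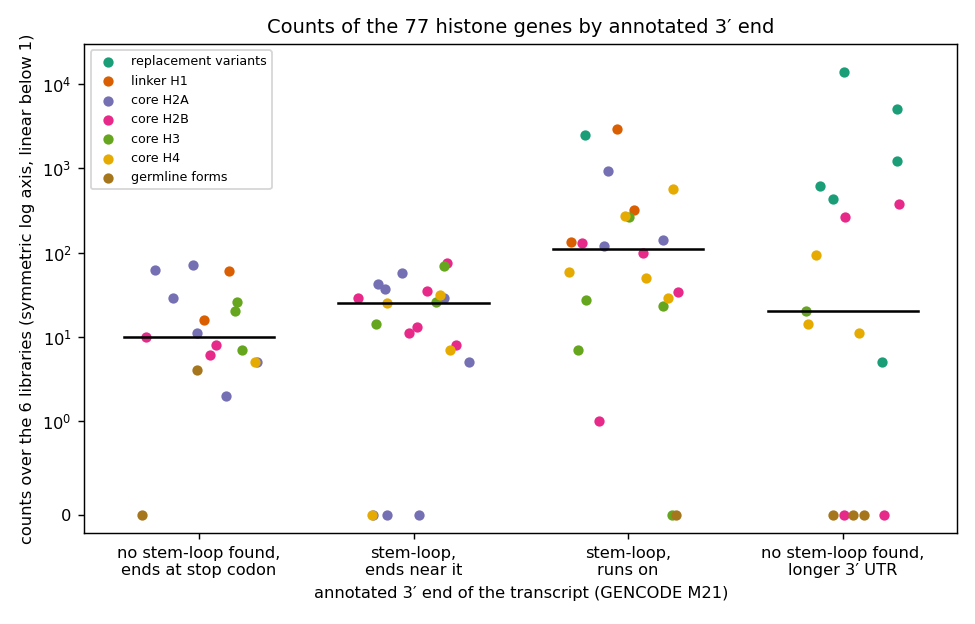
Counts over the 6 libraries of each of the 77 histone genes (symmetric log axis, linear below 1), by annotated 3' end, coloured by class, with lines at the medians of 10, 25, 109.5 and 20 counts. Genes whose models run on past the stem-loop reach 2931 counts, while those that end near it stay at or below 75.

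No histone gene passed the test between treatments. Members took 0.153% to 0.228% of each library. Replacement variants held 75.3% of the 31492 member counts and the 64 replication-dependent genes 24.7%. Only 25 members had enough counts for the test among 10067 genes, 19 replication-dependent and 6 variants, and of these 16 had higher and 9 lower fitted values in CK1i, while over all tested genes 4917 were higher and 5150 lower. edgeR's quasi-likelihood test called 0 members and 0 of all genes (0%), with member adjusted p-values from 0.999 up. At an unadjusted p under 0.05 there were 2 members, H2ax and H2bc21, both higher in CK1i, where 4.7% of all tested genes had such a p and 2.7% had it with higher values. DESeq2 called 8 genes (0.0795%), none of them a member. In 3 members, H2az1, H2bc21 and H2ac8, every CK1i library exceeded every CTRL library, as in 5.22% of tested genes, and 0 members had the opposite order, which 4.48% of tested genes had. The members that passed the count filter do not stand for all 77, and with 25 of them each gene is a large step in such a share.

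**Figure D2:**
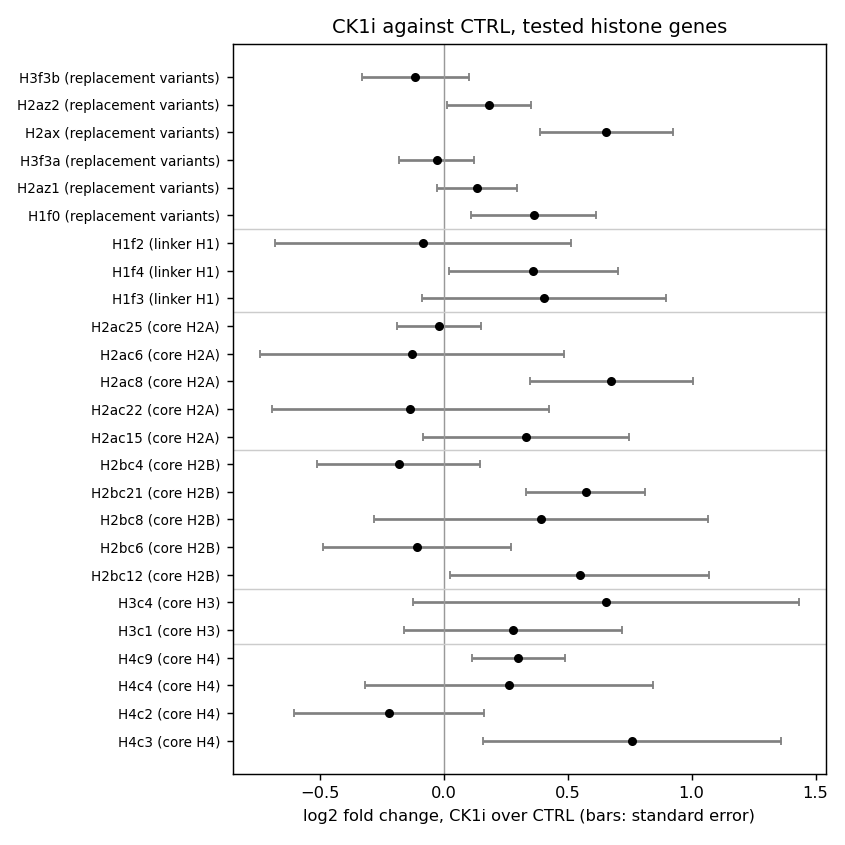
Log2 fold change (CK1i over CTRL) of the 25 tested histone genes by class, with the standard error of edgeR's fit as bars. Values run from -0.22 for H4c2 to 0.76 for H4c3. The widest bars belong to replication-dependent genes, led by H3c4 (SE 0.78), and H1f2, the most counted of them, has an SE of 0.60.

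Summed over the 64 replication-dependent genes, levels were 571, 509 and 328 CPM in CK1i libraries 1, 2 and 3 and 557, 257 and 484 CPM in CTRL libraries 1, 2 and 3. The group means were 469 ± 126 and 432 ± 156 CPM (SD, n = 3), so the spread inside each group was larger than the distance between them. The variants summed to 1759, 1301 and 1190 CPM in CK1i (an average of 1417 ± 302) and to 1452, 1289 and 1367 CPM in CTRL (1369 ± 81.5). The median log2 fold change was 0.30 over the 19 tested replication-dependent genes, with SEs up to 0.78, and -0.01 over all tested genes. Single libraries decided that median: it was -0.06 without CK1i library 2 and 0.01 without CTRL library 2. By class the medians were 0.36 for linker H1, -0.02 for H2A, 0.39 for H2B, 0.47 for H3 (2 genes), 0.28 for H4 and 0.16 for the variants. That of linker H1 was -0.02 without CTRL library 2. Without CK1i library 2 that of H3 was 0.02 and that of H4 -0.09. These levels count 3' ends and are not divided by transcript length, and in bulk samples fewer cells of a kind and less RNA per cell cannot be told apart.

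**Figure D3:**
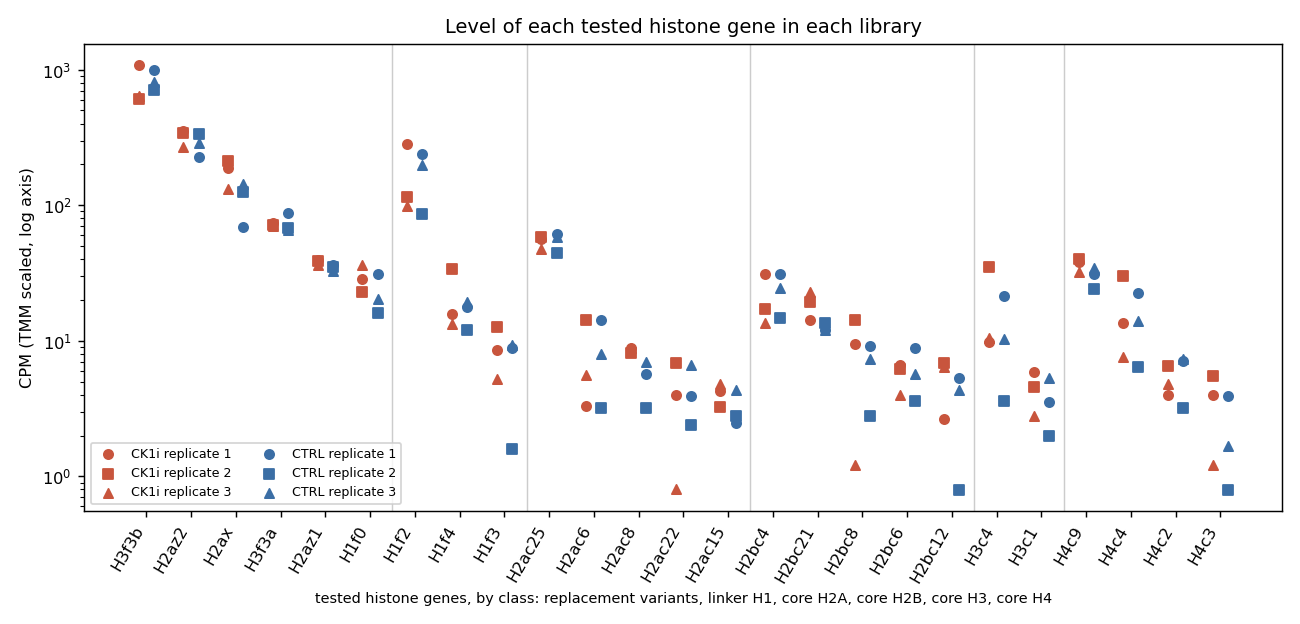
CPM of the 25 tested histone genes in each library on a log axis, CK1i in red and CTRL in blue, one marker shape per replicate number. H3f3b stands highest, from 612 to 1079 CPM, and the symbols of the 2 groups are interleaved for most genes.

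Linker H1 binds DNA where it enters and leaves the nucleosome. H1f2, encoding H1.2, was the most abundant replication-dependent gene, at 281, 115 and 98.3 CPM in CK1i libraries 1 to 3 and 240.0, 86.2 and 197 CPM in CTRL libraries 1 to 3. Each group held high and low libraries, so the groups overlapped, and the log2 fold change was -0.08 ± 0.60 (SE). It lies on chromosome 13 at 23738808 to 23740367, and its transcript runs 840 bases past the stem-loop. Without H1f2 the replication-dependent sum was 291, 394 and 230 CPM in CK1i and 317, 170 and 287 CPM in CTRL. H1f4 (H1.4) stood at 15.8, 33.9 and 13.2 CPM in CK1i against 17.7, 11.98 and 19.4 in CTRL (log2 fold change 0.36 ± 0.34). H1f3 (H1.3) had 8.55, 12.7 and 5.21 CPM against 8.87, 1.597 and 9.35 (0.41 ± 0.49). In both, CK1i library 2 was highest and CTRL library 2 lowest. The last 400 bases of H1f4 lie within an annotated exon of H2bc6 on the same strand, so reads of these genes may be shared or lost, and H1f4 is uncertain.

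Core H2A genes had 5 tested members of 17, 2 higher and 3 lower, and the middle log2 fold change was -0.02. H2ac25, outside the main cluster on chromosome 11, was the steadiest of the replication-dependent genes: 55.9, 58.4 and 47.3 CPM in CK1i and 61.4, 44.3 and 58.1 CPM in CTRL (log2 fold change -0.02 ± 0.17). Its highest library was 1.39 times its lowest. H2ac8 was 1 of the genes whose groups did not overlap, with 8.88, 8.15 and 8.82 CPM in CK1i and 5.68, 3.19 and 7.01 CPM in CTRL (0.68 ± 0.33, edgeR adjusted p = 0.999). Without CTRL library 2, its lowest, the log2 fold change was 0.44. H2ac6 had 3.29, 14.4 and 5.61 CPM in CK1i and 14.2, 3.19 and 8.01 CPM in CTRL (-0.13 ± 0.61), each group with a library near 14 and a library near 3. H2ac22 ran 3.95, 6.85 and 0.802 CPM against 3.90, 2.40 and 6.68 (-0.13 ± 0.56), and H2ac15 4.28, 3.26 and 4.81 against 2.48, 2.79 and 4.34 (0.33 ± 0.42). Of their last 400 bases, 84.6% of 75-base stretches in H2ac22, 32.0% in H2ac15 and 39.9% in H2ac8 also occur in another gene, so these 3 counts are uncertain.

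Core H2B pairs with H2A in the nucleosome. Its 5 tested members of 17 split 3 higher and 2 lower, with a median of 0.39 that was -0.06 without CK1i library 2. H2bc21, on chromosome 3 and with no stem-loop found in a 3' UTR of 2192 bases, had 14.1, 19.2 and 22.9 CPM in CK1i and 12.1, 13.6 and 12.02 CPM in CTRL. The groups did not overlap, and the log2 fold change was 0.57 ± 0.24 (edgeR adjusted p = 0.999). Monocyte and macrophage markers also had their CK1i range above their CTRL range, with list sums of 34.6 to 40.8 CPM against 24.1 to 27.9. Of these 11 markers Cd68 alone was tested (log2 fold change 0.50 ± 0.18) and Cd14, Fcgr1 and Cd163 were at 0, and their part in the values of H2bc21, H2ac8 and H2az1 was not tested. H2bc4 is annotated with a second exon and is the most counted H2B gene, at 30.9, 17.3 and 13.6 CPM in CK1i and 30.9, 14.8 and 24.7 CPM in CTRL (-0.18 ± 0.33). H2bc8 had the largest ratio of highest to lowest library among tested members, 11.9-fold, with 9.54, 14.4 and 1.20 CPM in CK1i against 9.23, 2.79 and 7.35 in CTRL (0.39 ± 0.67). H2bc6 (6.58, 6.20 and 4.01 against 8.87, 3.59 and 5.68 CPM) and H2bc12 (2.63, 6.85 and 6.42 against 5.33, 0.798 and 4.34 CPM) also overlapped between groups. Near the 3' end 71.2% of 75-base stretches in H2bc12 and 31.9% in H2bc8 also occur in another gene, so both counts are uncertain.

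Core H3 and H4 form the central tetramer of the nucleosome. H3c4 had 9.87, 35.2 and 10.4 CPM in CK1i and 21.3, 3.59 and 10.4 CPM in CTRL, a 9.81-fold range over 6 libraries, and its log2 fold change of 0.65 carried an SE of 0.78. Without CK1i library 2 that value was -0.23. H3c1, the other of 12 H3 genes that could be tested, had 5.92, 4.57 and 2.81 against 3.55, 2.00 and 5.34 CPM (0.28 ± 0.44). Of 13 H4 genes 4 were tested, 3 higher and 1 lower. H4c9 was the most abundant, with 38.2, 39.8 and 32.1 CPM in CK1i and 30.9, 24.0 and 34.4 CPM in CTRL (0.30 ± 0.19, 95% interval -0.07 to 0.67). H4c4 had 13.5, 30.01 and 7.62 CPM against 22.4, 6.39 and 14.0 (0.26 ± 0.58), in the same order of libraries as H3c4 at its top, with CK1i library 2 first and CTRL library 1 second. H4c2 (3.95, 6.52 and 4.81 against 7.10, 3.19 and 7.35 CPM) and H4c3 (3.95, 5.55 and 1.20 against 3.90, 0.798 and 1.67 CPM) also overlapped between groups, on 94 and 50 counts in all. Near the 3' end 74.0% of 75-base stretches in H4c2 and 42.6% in H3c1 also occur in another gene, so both counts are uncertain.

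H3.3 replaces H3 in transcribed and repaired chromatin, and H3f3a and H3f3b code for the same protein. H3f3b gave 1079, 612 and 644 CPM in CK1i and 1002, 709 and 818 CPM in CTRL (log2 fold change -0.11 ± 0.22). H3f3a gave 74.0, 72.1 and 70.6 against 87.0, 67.9 and 66.1 CPM (-0.03 ± 0.15). Library 1 of each group was highest for H3f3b, and the groups overlapped for both genes. H3f3b made up 91.1% ± 2.21 of H3.3 counts in CK1i and 91.9% ± 0.634 in CTRL (SD, n = 3; two-sided exact permutation p = 0.5, where 0.1 is the smallest possible). By library the share ran from 89.5% (exact binomial 95% interval 88.1% to 90.7%) to 93.6% (92.7% to 94.4%). In H3f3a 37.4% of 75-base stretches near the 3' end recur in other genes, and reads lost there would lower its count.

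H2A.Z marks promoters and enhancers and is encoded by H2az1 and H2az2. In these libraries H2az2 had the larger count: 351, 343 and 269.9 CPM in CK1i and 225, 337 and 287 CPM in CTRL (0.18 ± 0.17). H2az1 had 39.2, 38.5 and 36.5 CPM in CK1i and 36.2, 35.1 and 32.7 CPM in CTRL, so the lowest CK1i library exceeded the highest CTRL library by a small margin (0.14 ± 0.16, edgeR adjusted p = 0.999). H2az1 gave 10.7% ± 1.06 of H2A.Z counts in CK1i and 11.2% ± 2.34 in CTRL (exact permutation p = 0.8), and the sign of that difference turned to 0.844 percentage points higher in CK1i without CTRL library 1. Near its 3' end 41.3% of 75-base stretches of H2az1 also occur elsewhere in the annotation, so the ratio between these genes is uncertain.

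H2A.X is phosphorylated around DNA breaks, and its gene H2ax has a replication-type stem-loop with 822 more annotated bases beyond it. Levels were 188, 213 and 131 CPM in CK1i and 69.6, 125 and 143 CPM in CTRL. CTRL library 1 was lowest and CK1i library 3 fell inside the CTRL range. The log2 fold change was 0.66 ± 0.27 (95% interval 0.13 to 1.18, edgeR adjusted p = 0.999). Without CTRL library 1 it was 0.40. H1f0, the H1.0 variant of resting and differentiated cells, had 28.6, 22.8 and 36.1 CPM in CK1i and 31.2, 16.0 and 20.4 CPM in CTRL (0.36 ± 0.25, overlapping). H1f10 had 5 counts in all and was not tested.

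The replication-dependent genes varied widely between libraries of the same group. CTRL library 2 was the lowest of the 6 for 14 of the 19 tested genes, and CK1i library 2 the highest for 10. The highest library was between 1.39 and 11.9 times the lowest, with a median of 2.97 times, against a median of 1.66 times for the 6 tested variants. For scale, 3 counts in a library are worth up to 1.20 CPM, while H1f2 ranged 3.25-fold on 216 to 853 counts per library. How much of the width is counting was not tested. H1f2, H2bc4 and H3f3b shared another order, high in CK1i library 1, CTRL library 1 and CTRL library 3, which was seen after the values were known. H1f2 accordingly made up 49.1% of replication-dependent CPM in CK1i library 1 and 22.6% in CK1i library 2.

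**Figure D4:**
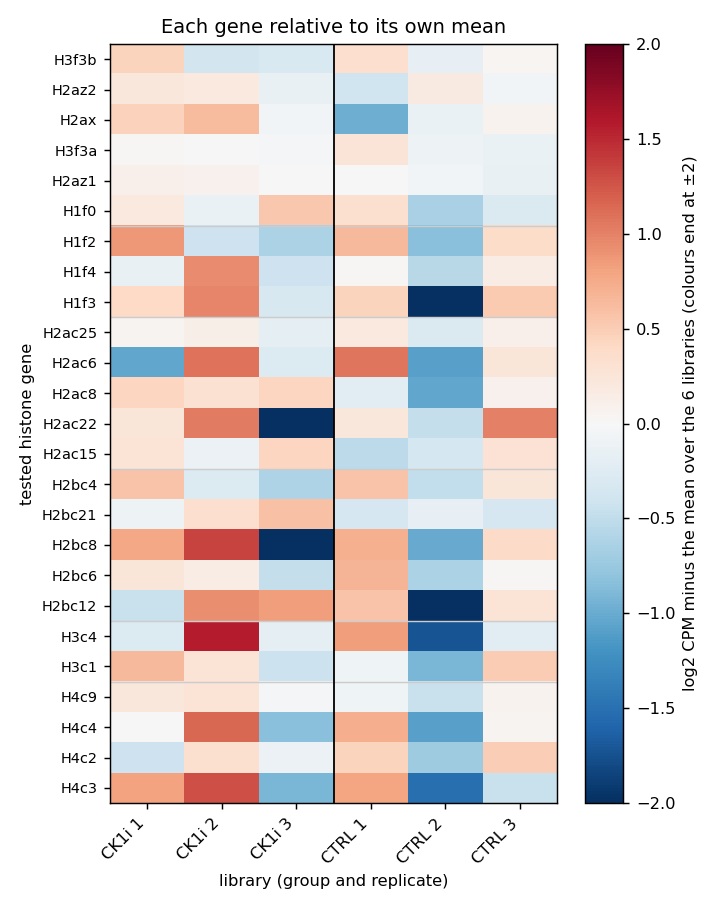
Log2 CPM of each tested histone gene minus its own mean over 6 libraries (colour, red above and blue below, ending at ±2), CK1i libraries left of the line and CTRL right. CTRL 2 is blue in most replication-dependent rows and CK1i 2 red in many, while the rows of H3f3a and H2az1 are pale throughout.

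No gene that serves histone supply was called. Of 29 tested genes for transcription and 3' processing of histone mRNA, 13 were higher and 16 lower in CK1i, 0 were called and the median log2 fold change was -0.05. Slbp had 45.7, 49.3 and 45.7 CPM in CK1i and 85.2, 41.1 and 56.4 CPM in CTRL (-0.38 ± 0.22), with CTRL library 1 far above the others. Npat (0.22 ± 0.21) overlapped between groups, and Casp8ap2, the FLASH protein of histone locus bodies, was 58.6, 79.6 and 60.6 CPM in CK1i against 52.2, 53.9 and 56.1 in CTRL (0.29 ± 0.16). Eri1, an exonuclease that trims the histone stem-loop, had the smallest p of the list (0.34 ± 0.14, edgeR adjusted p = 0.999). Lsm10 (-0.35 ± 0.19), of the U7 particle that recognises histone precursors, and the cleavage factor gene Cpsf1 (-0.24 ± 0.14) had lower values in CK1i.

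Among 44 tested chaperone and deposition genes 28 were higher and 16 lower, 4 had an unadjusted p under 0.05 (4.7% of all tested genes did), 0 were called and the median was 0.06. Anp32e, a chaperone that removes H2A.Z, had 405, 417 and 396 CPM in CK1i and 265, 369 and 303 CPM in CTRL (0.38 ± 0.15, edgeR adjusted p = 0.999). Mis18a, which prepares centromeres for CENP-A, stood at 0.44 ± 0.19, and Chaf1a, the large subunit of the replication-coupled assembly factor CAF-1, at 0.45 ± 0.20. Ruvbl2, an ATPase of the H2A.Z exchange complexes, was lower (-0.90 ± 0.41) on 71 counts. The CAF-1 gene Chaf1b (0.26 ± 0.37), Asf1b (0.43 ± 0.31) and Nasp (0.06 ± 0.15), which carry new H3 and H4, overlapped between groups. Of histone genes outside the symbol rule 3 were tested: Cenpa, the centromeric H3, at 0.29 ± 0.19, Macroh2a1 at 0.25 ± 0.14 and H2aj at -0.24 ± 0.19, none of them called.

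Replication-dependent histone messages are a textbook sign of S phase, so cell cycle genes were set beside them. That sign is the message without a tail, while the histone sum here was read by oligo-dT priming, which is made to take tailed transcripts. Whether the counted transcripts carried a tail was not examined. H1f2 alone made up 22.6% to 49.1% of the sum in a library. Whether the counted transcripts follow S phase was not tested. The 36 genes of S phase and replication had 34 higher and 2 lower values in CK1i, a median of 0.40, 6 at an unadjusted p under 0.05 and 0 called, and the median was 0.19 without CTRL library 1. Slbp is on this list too and is 1 of the 2 lower genes. Their summed levels were 3208, 3756 and 2944 CPM in CK1i and 1809, 3188 and 2813 CPM in CTRL. All 19 tested G2 and mitosis genes were higher, 18 at an unadjusted p under 0.05, a p that 2.7% of all tested genes had with higher values, and 0 called, with sums of 1964, 2905 and 1931 CPM against 829.6, 1559.6 and 1503 CPM. CTRL library 1 was thus lowest in both lists and in H2ax, yet its replication-dependent histone sum of 557 CPM was second of 6. CTRL library 2 went the other way, with the lowest histone sum and an S-phase sum close to that of CK1i library 1.

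**Figure D5:**
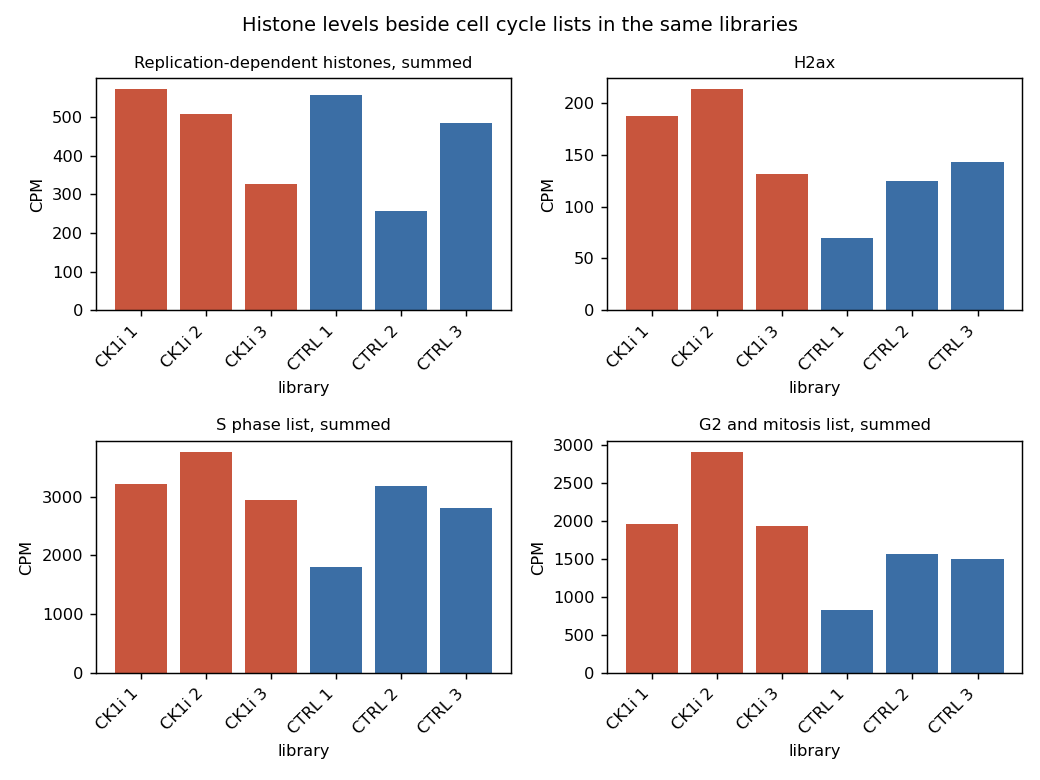
Summed CPM per library of the replication-dependent histone genes, H2ax, the S phase list and the G2 and mitosis list (bars, from 0; CK1i red, CTRL blue). CTRL 1 has the shortest bar for H2ax and both cell cycle lists but the second tallest for the histone sum.

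In the S-phase list the smallest p-values belonged to Rrm1 (log2 fold change 0.53 ± 0.18), Mcm4 (0.59 ± 0.22), Mcm6 (0.38 ± 0.15) and Prim1 (0.53 ± 0.23), while Pcna (0.19 ± 0.15), Mcm5 (0.37 ± 0.25) and Rrm2 (0.52 ± 0.45) overlapped between groups. In the mitosis list they belonged to Kif20a (0.87 ± 0.18), Ube2c (1.44 ± 0.29), Nusap1 (1.101 ± 0.23) and Ccnb2 (0.97 ± 0.22), and Mki67 had 0.97 ± 0.31. Of 13 tested genes for the H2A.X response and DNA damage 10 were higher and 3 lower with a median of 0.06, led by Rnf168, a ligase that ubiquitinates H2A at breaks (0.45 ± 0.17), Trp53bp1 (-0.26 ± 0.15), Brca1 (0.34 ± 0.24) and Ppm1d (0.17 ± 0.14). None of these genes was called by edgeR.

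Promoter letters, which the symbol rule did not use, differed in frequency between the histone classes. RefSeq promoters of GRCm38.p6, 250 bases before to 50 after the start, were matched for 66 members and searched on both strands, beside 32851 promoters in all. The octamer ATTTGCAT, which POU factors such as OCT1 and the B-cell factor OCT2 bind and which is known from H2B promoters, was in 6 of 13 core H2B and 5 of 16 core H2A promoters and in none of the 10 H3, 11 H4 and 5 linker H1 promoters, against 1.74% of all. Of the testis and oocyte forms, 2 of 5 also had the octamer. CCAAT was in every matched H2A, H2B, H3 and linker H1 promoter (16, 13, 10 and 5) and in 3 of 11 H4 promoters, against 37.4% of all. AAACACA, an element described in H1 promoters, was in 4 of 5 linker H1 promoters against 7.18% of all. It was also in 3 of 5 testis and oocyte forms, 1 of 16 H2A, 1 of 13 H2B and 1 of 6 variants. TATAAA was in 35 of the 66 members against 13.6%. A member counted if any of its promoters matched, while the percentages over all are per promoter. None of the 4 motifs contains another. A match is a description of the letters, not of a bound site.

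Many, though not all, H2A and H2B genes lie head to head in pairs, and 3 pairs share a single octamer between their starts. The windows below are 30 bases long, with the octamer or its reverse complement in capitals, and are examples: the shared octamers of the 2 pairs with a tested member, that of H2bc6 alone, and that of the replacement variant H3f3b.
H2bc8 with H2ac8, chr13:23571330-23571359, strand of H2bc8: ttgagtcccttATTTGCATagaacctctat
H2bc12 with H2ac12, chr13:22035780-22035809, strand of H2bc12: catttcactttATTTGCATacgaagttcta
H2bc6, chr13:23586019-23586048, minus strand: agtaagacttaATTTGCATaagactgccta
H3f3b, chr11:116024560-116024589, minus strand: gtcgttggtgtATGCAAATcagggttctgt
The octamer lies 51 bases before the start of H2bc8 and 120 before that of H2ac8. Around that shared stretch H2ac8 had 8.15 to 8.88 CPM in CK1i and 3.19 to 7.01 CPM in CTRL, and H2bc8 1.20 to 14.4 CPM in CK1i and 2.79 to 9.23 CPM in CTRL. H3f3b was the only replacement variant with an octamer, 66 bases before its start.

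Of the 52 members that were not tested, 27 had at least 10 counts. Linker H1f5 had 60 and H1f1 16. Among H2A genes H2ac20 had 58 counts, H2ac11 42, H2ac4 37, H2ac7 and H2ac13 29 each, and H2ac12 11. H2B genes followed with 35 for H2bc11, 34 for H2bc9, 29 for H2bc3, 13 for H2bc14, 11 for H2bc7 and 10 for H2bc18. The H3 genes were H3c6 with 27 counts, H3c3 and H3c11 with 26, H3c15 with 23, H3c8 and H3c13 with 20 and H3c2 with 14. For H4 they were H4c14 with 59, H4c8 with 31, H4c16 with 29, H4c18 with 25, H4c1 with 14 and H4c11 with 11. Another 13 members had 1 to 9 counts and 12 had 0, which over all libraries allows a level of up to 0.177 CPM. Of the 6 testis and oocyte forms, 5 had 0 counts and H2ac1 had 4. H2ac18, H2ac19, H2bc23 and H3c14, all at 0, share every 75-base stretch near the 3' end with another annotated gene. H2ac23, H4c17 and H2bc24, also at 0, share 91.4%, 89.6% and 79.1% of theirs. A count of 0 in any of these genes is therefore uncertain.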

How the data were processed

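Raw counts of each gene in 6 libraries, as whole numbers, were deposited by the authors. Per the submitters' processing notes the build was GRCm38.p6 and the tools, in alphabetical order and with no role given, were bcl2fastq 2.20.0.422, FastQC 0.11.9, featureCounts 1.6.3, limma, Picard 2.18.27, Seurat, STAR 2.7.3a, Trimmomatic 0.36 and UMI-tools 1.1.1. Per the labels' protocols, libraries were QuantSeq forward with molecular identifiers, read at 75 bases. Whether these were collapsed, and the strand and multimapping settings, are not given in the sources used here, so intervals and floors cover counting error only, and overlapping or near-identical genes are uncertain.

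The deposited counts were fitted by edgeR 4.0.16 under R 4.3.3. Genes were kept by filterByExpr (minimum count 10, minimum total 15), scaled by TMM and compared by the robust quasi-likelihood F test over 10067 genes, all 6 libraries, with Benjamini-Hochberg adjustment over all of them and a threshold of 0.05. The biological coefficient of variation was 0.16. SE is the standard error of a log2 fold change, and CPM is scaled by TMM. Shares were compared by exact permutation over 20 assignments, two-sided. All libraries carry 1 batch label. DESeq2 1.42.0, limma-voom 3.58.1, other scalings, other filters and leaving out each library were alternatives. On counts simulated from these libraries, with 200 genes changed, the edgeR step called 77% of genes changed by 1 on the log2 scale and 99% of those changed by 2. Every simulated gene had the same biological coefficient of variation. The tested replication-dependent genes had a median SE of 0.44, against 0.19 over all tested genes, so these percentages do not describe them.

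The 3' ends were read from GENCODE M21 transcripts and promoters from RefSeq tables. A 3' end ran on when over 100 bases followed the stem-loop. Sharing was the percent of 75-base stretches in the last 400 bases found in another gene. The members, the 15 gene lists and the motifs were chosen with earlier results of these data known. Every tested member, each untested member with at least 10 counts, up to 4 genes with the smallest p per list and 12 set genes were to be named; other names were chosen after values were seen. Of marker lists with no role in a result, sums are given in place of genes.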

Additional observations from a re-analysis of the deposited data

How the results depend on the processing

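With 2472064 to 3105137 counts per library, the fold changes of tested replication-dependent genes carried SEs of 0.17 to 0.78. DESeq2 called 8 genes and the fit with no filter 3, against 0 in the reported fit; leaving out 1 library gave 0 to 1. Members at an unadjusted p under 0.05 numbered 1 with DESeq2, and 0 to 2 without 1 library. No member was called under any alternative. Of the 25 tested members, 12 kept their sign in every alternative and 13 turned it when 1 library was left out, with no other alternative turning any. Their ranges without 1 library were -0.81 to 0.33 for H2ac22, -0.15 to 0.071 for H2ac25, -0.96 to 0.44 for H2ac6, -0.60 to 0.061 for H2bc4, -0.35 to 0.27 for H2bc6, -0.22 to 0.86 for H2bc8, -0.23 to 1.38 for H3c4, -0.43 to 0.73 for H4c4, -0.71 to 0.22 for H1f2, -0.024 to 0.73 for H1f3, -0.18 to 0.60 for H1f4, -0.10 to 0.11 for H3f3a and -0.42 to 0.033 for H3f3b. Among the 12 that kept their sign, sizes still moved: 0.013 to 0.67 for H3c1, 0.31 to 1.51 for H4c3, 0.043 to 0.33 for H2az2, 0.17 to 0.67 for H1f0, 0.12 to 0.95 for H2bc12 and -0.50 to -0.030 for H4c2. The H2az1 share difference ran from -1.35 to 0.844 percentage points. No paired analysis was possible because the labels give no replicate numbers that groups share.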

Other observations

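In 10 of the 25 tested members over 30% of 75-base stretches near the 3' end occur in another annotated gene, while 14 share none. H1f4 is 1 of the 10 and overlaps an exon of H2bc6 on the same strand. H1f2, H2ac25, H4c9, H3c4 and H4c4 are among those that share none.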
